A study of Rattus norvegicus with 4 samples.

Results

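The genes described here encode voltage-gated and related ion channels. They are the genes with a single platform symbol that begins with Kcn, Scn, Cacn, Clcn, Hcn, Trpc, Trpm or Trpv, with 1 calcium channel gene left out by the rule. This gave 88 of the 4736 genes on the array, measured by 135 probe sets, and 34 of the 88 had more than 1 probe set. A probe set is a group of short DNA probes for a transcript, and the probe set with the highest mean over the 4 arrays stood for the gene. The names cover more than voltage-gated pores: the Kcnj and Kcnk channels have no voltage sensor, the Scnn1 genes encode the epithelial sodium channel, and Kcne, Kcnab, Kcnmb, Cacnb, Cacng and Cacna2d genes encode auxiliary subunits.

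In the working heart, sodium and calcium channels carry the inward currents that start and hold the action potential, and several potassium channels carry the outward currents that end it. Transient outward channels shape the early phase, delayed rectifiers end the plateau, and inward rectifiers hold the resting potential. ATP-sensitive potassium channels open when cellular ATP falls and so couple the state of metabolism to excitability. In hypertrophied and failing ventricle, lower potassium currents and a longer action potential are a well-known feature.

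Total RNA came from rat left ventricle, with 1 Affymetrix rat genome array for each of 4 groups. Sprague Dawley rats were the control (SD control). The double transgenic rats (dTGR) overexpress the human genes of renin and angiotensinogen, and were untreated or given losartan, a blocker of the angiotensin receptor. The last array was labelled as terminal heart failure. The terminal sample's title names no genotype, and the 4 samples, the control included, share 1 description, of the transgenic rat with hypertension, an enlarged heart, protein in the urine and death after 7 weeks. The sources used here do not give the dose, the age, the promoters of the transgenes, the number of animals or whether RNA was pooled.

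With 1 array per group there is no replicate, and no test or interval is given: every difference below is the size of a difference between 2 arrays. The only error that could be measured was how far probe sets for 1 gene differ, and their log2 differences had an SD of 0.51 to 0.60 over the 6 comparisons. An intensity of 26.0, the 40th percentile of the pooled values, served as a floor, and lower values were set to it. A gene counted as higher or lower where at least 1 of the arrays compared was above the floor and the difference was 2-fold or more (1 on the log2 scale), and a fold with 1 side at the floor is given as "at least". Intensities of different probe sets are not comparable as levels, so members are compared between arrays only.

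Arrays and groups could not be separated. The SD control and dTGR arrays shared a chip lot, the losartan and terminal arrays shared another, and the terminal array was run on another day. For dTGR the fluidics protocol was another one, recorded with 0 cycles of both early washes and 0 seconds of first stain, against 10 and 4 cycles and 600 seconds on the other 3. Low signal was higher on the dTGR array: 63.5% of probe sets were above the floor there and 58.2% to 59.1% on the others. Of 9 cardiomyocyte markers, 8 were above the floor on each array and Ttn was at the floor. Their summed intensity was 75032 in SD control, 150476 in dTGR, 99049 after losartan and 72566 in terminal heart failure, and the part of these differences in the results was not tested. In bulk tissue, fewer cells of a type and less RNA per cell cannot be told apart.

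Of the 88 channel genes, 63 (71.6%) were above the floor on at least 1 array and 22 (25%) on all 4, against 80.4% and 54.6% of all genes. By their mean over the arrays, 40 of 88 lay above the 40th percentile. A mean intensity of 100 or more was reached by 11 (12.5%) channel genes and by 37.1% of all genes, so most members were measured close to the floor. The largest value was on the dTGR array for 29 of the 63 (46.0%), against 33.3% of all genes, and on the terminal array for 5 (7.94%), against 20.0%. Of 21 members above the floor on a single array, 10 (47.6%) were so on the dTGR array, against 57.8% of all genes of that kind.

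Against SD control, the dTGR ventricle had higher values of Kcna1, Kcnc4, Kcnf1, Kcnh4, Kcnk1, Scn9a and Scnn1a and lower values of Kcnj8, Kcnd2, Kcnn1, Cacnb2 and Trpc1. That is 7 of 55 channel genes higher, where the background over all genes was 7.69%, and 5 lower, with a background of 5.87%. The median of the 55 was 0.25 and that of all 3614 genes tested was 0.03 on the log2 scale. The 7 higher genes had mean intensities under 100, a range in which 12.3% of all 1857 genes tested were higher, with a median of 0.16, and 15.9% of the 44 channel genes, with a median of 0.39. The 11 channel genes with a mean of 100 or more included 0 higher and 1 lower, Kcnj8, with a median of -0.03. Scaling the arrays to the same median left 2 higher and 6 lower, as did quantile normalization, and no channel gene was higher with the floor at the 60th percentile. Counts over all genes moved as well, from 278 higher and 212 lower to 159 and 379 with median scaling. With quantile normalization they were 215 and 247, and for that floor they are not given here.

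In terminal heart failure against SD control, Kcnj11, Kcnq1, Kcnd2 and Cacna1e were lower and Kcne1 was higher. Thus 4 of 44 channel genes were lower, with a background of 8.4%, and 1 was higher, with a background of 6.38%. The median was -0.23, and over all 3371 genes it was -0.14. The lower share of channel genes was close to the background and the higher share under it. These arrays differed in chip lot and run day.

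Between terminal heart failure and dTGR, 10 of 50 channel genes were lower in the terminal array (background 11.8%) and 5 were higher (background 7.69%), with a median of -0.45 against -0.18 over all genes. The lower ones were Kcna1, Kcnc4, Kcnf1, Kcng1, Kcnh4, Cacna1b, Cacna1e, Cacnb3, Scn9a and Scnn1a. The higher ones were Kcne1, Kcnj5, Kcnn1, Cacnb2 and Trpc1. Of the 10 lower genes, 8 lay under the floor in terminal heart failure. So did 171 of the 426 lower over all genes, and 168 of the 295 of these with a mean intensity under 100. All 10 lower and 5 higher genes had mean intensities under 100. In that range 25.6% of the 39 channel genes and 16.0% of all 1846 genes tested were lower. Higher were 12.8% and 8.23%, and the medians were -0.47 and -0.30. Scaling to the same median gave 7 lower and 6 higher and moved the median over all genes from -0.18 to 0.09, and with the floor at the 60th percentile 0 members were called. That scaling moved the counts over all genes from 426 lower and 277 higher to 226 and 442. For that floor they are not given here.

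Losartan-treated against untreated dTGR gave a like split: 10 of 59 channel genes were lower after losartan (background 9.5%) and 2 were higher (background 5.9%). Trpc1 and Cacnb2 were the higher ones. Kcnq1, Kcnab2, Kcnk1, Kcna1, Kcnc4, Cacna1b, Cacna1e, Cacnb3, Scn9a and Scnn1a were lower. The median was -0.16 against -0.05 over all genes. Among genes with a mean intensity under 100, 18.8% of the 48 channel genes and 14.0% of all 1886 genes tested were lower. Higher in that range were 4.17% and 6.52%, and the medians were -0.18 and -0.16. This comparison shares the dTGR array with both earlier ones that used it, so its calls are not independent of theirs. Scaling to the same median gave 5 lower and 3 higher, with the median over all genes at 0.17, and quantile normalization gave 6 and 4. Over all genes, 346 lower and 215 higher became 219 and 340 with that scaling and 284 and 275 with quantile normalization.

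Against SD control, the losartan-treated ventricle had 2 of 50 channel genes higher, Kcne1 and Kcnf1 (background 2.24%), and 2 lower, Kcnq1 and Kcnn1 (background 4.86%), with a median of -0.05. Against the losartan-treated array, which came from the same chip lot, terminal heart failure had 2 of 48 higher, Kcne1 and Kcnab2 (background 7.44%), and 2 lower, Kcnj11 and Kcnf1 (background 7.35%), with a median of -0.06. Over all genes the medians were -0.00 and -0.12. Quantile normalization changed the last pair of counts to 1 higher and 3 lower, and that over all genes from 253 and 250 to 260 and 258. In any of the 6 comparisons, 21 of the 63 channel genes above the floor were called (33.3%), against 35.6% of all genes. Of these 21, 13 (61.9%) were called only in comparisons with the untreated dTGR array, against 41.0% of all genes called, and 18 had a mean intensity under 100. The share of all genes called with so low a mean is not given here.

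**Figure D1:**
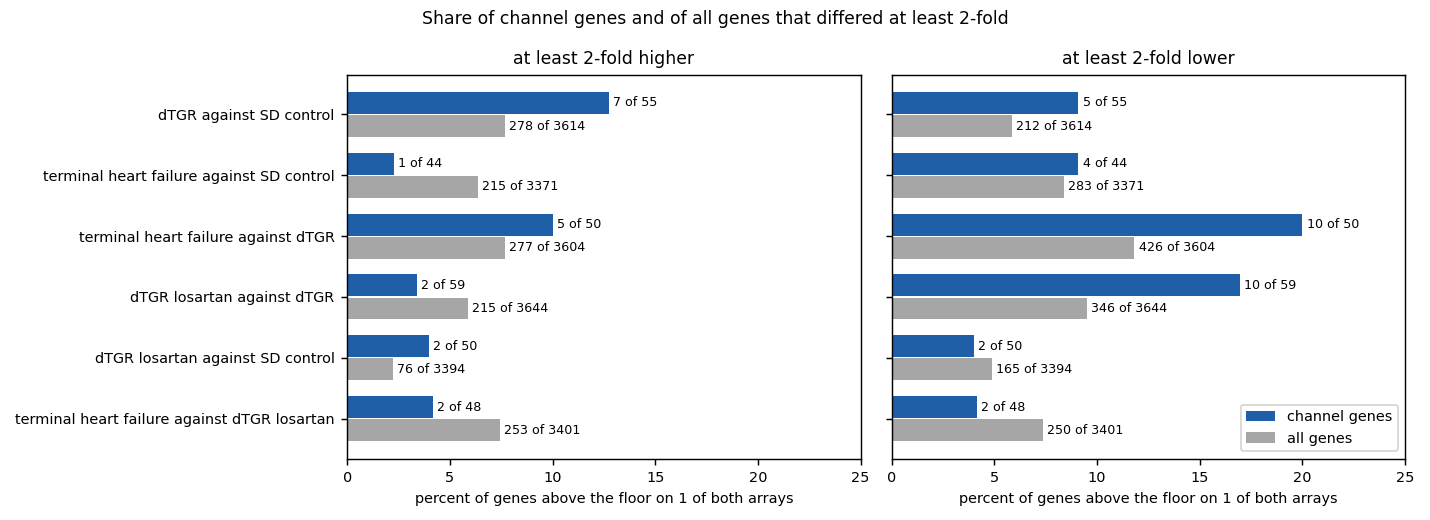
Percent of genes at least 2-fold higher (left) and lower (right) in each of 6 comparisons of single arrays, for channel genes (blue) and all genes (grey), with the count called and the number tested beside each bar. The channel genes' bars are longest on the lower side for terminal heart failure and losartan against dTGR (10 of 50 and 10 of 59) and on the higher side for dTGR against SD control (7 of 55), and several others rest on 1 to 5 genes.

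**Figure D2:**
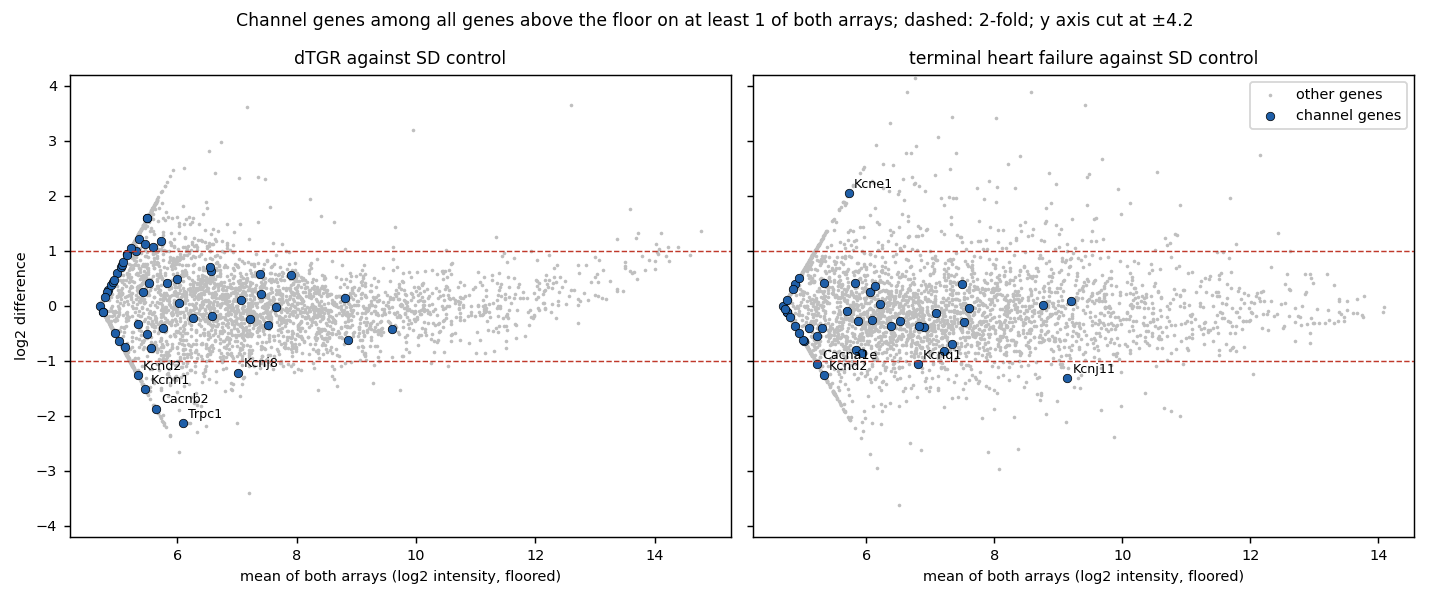
Log2 difference against the mean log2 intensity of both arrays for dTGR (left) and terminal heart failure (right) against SD control, with channel genes in blue, other genes in grey and 2-fold as dashed lines. The diagonal edges at low intensity are genes with 1 array at the floor. Of the 7 unlabelled channel genes above the upper line on the left, Kcna1, Scnn1a and Scn9a lie on an edge. Kcnc4, Kcnk1, Kcnf1 and Kcnh4 lie near it but are above the floor on both arrays, as are Kcnj11 and Kcnq1 on the right.

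The inward rectifiers include the pore subunits of the ATP-sensitive potassium channel. Kcnj11, the pore of the cardiomyocyte form, had intensities of 892 in SD control, 667 in dTGR, 767 after losartan and 356 in terminal heart failure. The terminal array was the low one. It was 2.51-fold lower than SD control, 2.16-fold lower than losartan-treated dTGR and, with a log2 difference of -0.91, short of 2-fold against dTGR. A further probe set of Kcnj11, built on the same source sequence, had the same order of arrays, at 505, 399, 423 and 198, with log2 differences of -1.35 from SD control and -1.01 from dTGR. Any gene called at 2-fold differs by more than the probe set SD of this comparison, 0.51, so that SD is no further check on Kcnj11. That SD is a spread between probe sets on the same 2 arrays and holds no variation between animals or repeated arrays. Both calls of Kcnj11 stood under every alternative setting tried. Of the 8 cardiomyocyte markers above the floor, the differences between the same arrays ran from -0.64 for Ryr2 to 1.13 for Csrp3, with a median of -0.16, and their part in the Kcnj11 value was not tested.

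Kcnj8, the pore of the vascular form of the ATP-sensitive channel, was at 197 in SD control, 84.8 in dTGR, 132 after losartan and 111 in terminal heart failure. Here dTGR was the low array, 2.33-fold below SD control, and the other disease arrays lay between. That call stood under every alternative setting. Of 5 smooth muscle markers, Myh11, a smooth muscle myosin, was also called lower in dTGR, at 55.7 against 136 in SD control (2.43-fold), and Acta2 differed by -0.79. The other three, Tagln, Cnn1 and Des, were not called, with dTGR values above those of SD control. The list summed to 7171 in SD control, 9473 in dTGR, 5073 after losartan and 8310 in terminal heart failure, most of it from Des. All 5 were above the floor except after losartan, where 4 were, and their part in the Kcnj8 value was not tested.

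The sulfonylurea receptors form these channels together with the Kcnj8 and Kcnj11 pores. Abcc9, the receptor of the cardiac and vascular forms, was at 421, 454, 298 and 236 in SD control, dTGR, losartan and terminal heart failure, and its terminal value differed by -0.83 from SD control. Abcc8, the receptor of the pancreatic form, was at 73.0, 96.8, 91.6 and 48.7, with a terminal difference of -0.58. Neither reached 2-fold. In the rat gene table Abcc9 is the neighbour of Kcnj8, and Abcc8 that of Kcnj11. The 250 bases upstream of the start of Kcnj8, the member lower in dTGR at every setting, are shown from RefSeq on GRCr8, on the minus strand at chr4:177246549-177246798, with capitals for the 1 GC box (GGGCGG on either strand), 123 bases before the start.
Kcnj8: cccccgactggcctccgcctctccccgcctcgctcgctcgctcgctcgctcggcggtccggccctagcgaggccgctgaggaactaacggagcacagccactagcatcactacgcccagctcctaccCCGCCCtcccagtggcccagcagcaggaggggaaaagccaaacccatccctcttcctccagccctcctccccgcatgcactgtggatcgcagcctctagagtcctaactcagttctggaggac

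Kcnj5, a subunit of the acetylcholine-activated channel of heart muscle, was at 61.6, 36.3, 60.5 and 72.7 in SD control, dTGR, losartan and terminal heart failure. The dTGR array was low, and terminal heart failure was 2-fold above it, at the threshold, which it missed with the floor at the 60th percentile (0.14). Kcnj1, the potassium secretory channel of the kidney, lay between 52.9 and 66.7 on the 4 arrays. Of the 15 inward rectifiers, 11 were above the floor on at least 1 array. Kcnj2, Kcnj9, Kcnj13 and Kcnj16 were under it on all 4. Kcnj2 encodes the main pore of the ventricular resting current, and a signal under the floor does not show that its transcript was absent.

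**Figure D3:**
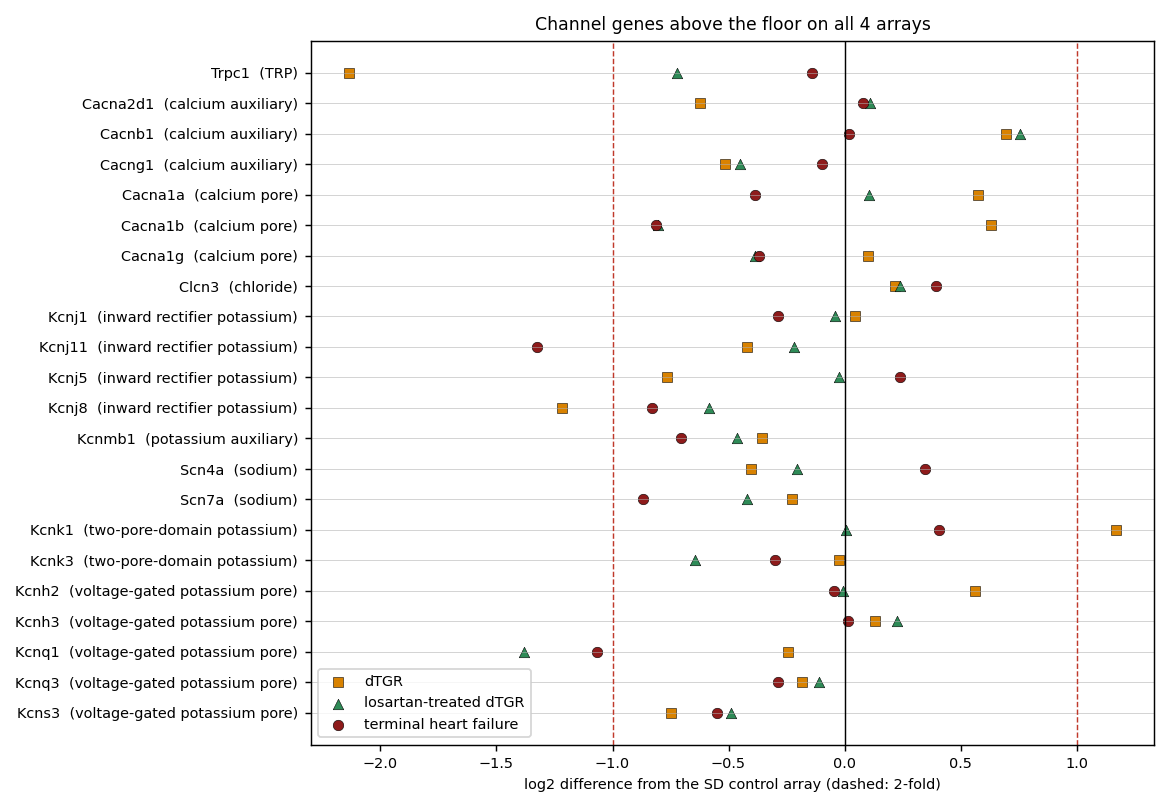
Log2 difference from the SD control array for the 22 channel genes above the floor on all 4 arrays, ordered by role, with squares for dTGR, triangles for losartan-treated dTGR and circles for terminal heart failure; each point is 1 array against 1 array and dashed lines mark 2-fold. Kcnj11 and Kcnq1 in terminal heart failure, Kcnq1 after losartan, and Kcnj8 and Trpc1 in dTGR lie past 2-fold on the lower side, and Kcnk1 in dTGR on the higher side.

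The delayed rectifiers include a pore and a small partner that act together. Kcnq1, the pore of the slow delayed rectifier, was at 162 in SD control, 136 in dTGR, 62.1 after losartan and 77.3 in terminal heart failure. The losartan and terminal arrays, which share a chip lot, were both low, at 2.60-fold and 2.09-fold below SD control. Whether the lot plays a part was not tested. The losartan value was also 2.20-fold below dTGR. The terminal difference was -1.06, and it fell short of 2-fold after quantile normalization and cyclic loess, where the smallest size was -0.91. The losartan difference from SD control stayed past 2-fold throughout, and that from dTGR was -0.90 after scaling to the same median.

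Kcne1, the single-span partner that slows the opening of the Kcnq1 pore, went the other way. Its intensity was 19.0 in SD control, under the floor, 39.2 in dTGR, 53.3 after losartan and 107 in terminal heart failure. The terminal array was the high one, at least 4.13-fold above SD control, 2.74-fold above dTGR and 2.02-fold above losartan-treated dTGR, and losartan was at least 2.05-fold above SD control. The probe set used has the suffix that marks probes shared with related sequences, and the other Kcne1 probe set did not follow it, at 14.1, 34.2, 18.1 and 23.0. With the median of both probe sets, only the terminal difference from SD control stayed past 2-fold. With the floor at the 60th percentile that difference was 0.70, and the terminal difference from losartan was also under 2-fold after quantile normalization.

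Macrophage markers were also highest on the terminal array, where 4 of 6 were above the floor, with summed intensities of 1355, 2015, 1430 and 3919 in SD control, dTGR, losartan and terminal heart failure. Csf1r and Itgam, which define these cells, were at the floor. Their part in the Kcne1 value was not tested. The 250 bases upstream of Kcne1, the 1 member called higher in terminal heart failure against SD control, lie on the minus strand at chr11:45077034-45077283 of GRCr8 (RefSeq), with capitals for the 1 GATA site (AGATAA on either strand), 244 bases before the start.
Kcne1: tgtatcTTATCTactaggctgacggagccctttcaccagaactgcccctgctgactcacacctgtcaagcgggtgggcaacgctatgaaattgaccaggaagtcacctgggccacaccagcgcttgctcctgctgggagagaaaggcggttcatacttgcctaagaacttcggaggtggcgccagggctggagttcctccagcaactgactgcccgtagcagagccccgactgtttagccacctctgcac

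Kcnh2, the pore of the rapid delayed rectifier, was at 197, 292, 197 and 191 in SD control, dTGR, losartan and terminal heart failure. Except for dTGR, with a difference of 0.56, these values were close to equal, but a further probe set was at 62.5, 42.9, 70.2 and 31.1, with terminal heart failure low, at -1.01 from SD control. The probe sets of Kcnh2 thus gave no common pattern. Kcnh3, a related channel known from forebrain, ranged from 430 to 502 and its other probe set from 24.1 to 78.7. Kcnh4, of the same subfamily, was at 33.5, 70.0, 48.9 and 19.1, with dTGR 2.09-fold above SD control and the terminal value under the floor, at least 2.69-fold below dTGR. Kcnq3, a subunit of the M-current of neurons, ranged only from 83.5 to 102.

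Transient outward pores were measured low. Kcnd2, a pore of the fast transient outward current in rodent ventricle, was at 62.7 in SD control, 12.1 in dTGR, 43.6 after losartan and 7 in terminal heart failure. SD control and losartan were above the floor and both dTGR and terminal heart failure under it, so each was at least 2.41-fold below SD control. With the median of the Kcnd2 probe sets both differences were -0.63, because the other probe set lay under the floor on every array. Kcnd3, the related pore, was above the floor only after losartan, at 38.1. Kcna4, the pore of the slow transient outward current, was above it only in SD control, at 28.1, and on another probe set only in dTGR, at 41.2. The 250 bases upstream of Kcnd2, called lower against SD control in both dTGR and terminal heart failure, lie on the plus strand at chr4:50742235-50742484 of GRCr8 (RefSeq) and hold none of the 6 motifs searched, so they carry no capitals.
Kcnd2: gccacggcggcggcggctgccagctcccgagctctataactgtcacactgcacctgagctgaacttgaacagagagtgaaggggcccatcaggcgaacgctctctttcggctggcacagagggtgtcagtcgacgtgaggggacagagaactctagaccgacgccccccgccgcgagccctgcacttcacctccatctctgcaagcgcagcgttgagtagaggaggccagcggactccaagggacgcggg

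The motifs searched on both strands were the GC box GGGCGG, the TATA box TATAAA, the M-CAT element CATTCC, the FOXO site GTAAACA, the GATA site AGATAA and the cyclic AMP response element TGACGTCA, picked after values were seen. Each window shown held at most 1 match, so none overlapped. Channel genes had 1 promoter each, whereas the set of all promoters was not limited to 1 per gene or to genes on the array. Of the 66 channel genes with an entry in the promoter table, 31 (47.0%) held a GC box in the 250 bases, against 30.5% of all 33469 promoters. The M-CAT element was in 10 (15.2%, against 12.1%), the GATA site in 6 (9.09%, against 10.3%), the TATA box in 5 (7.58%, against 12.9%), the cyclic AMP response element in 1 (1.52%, against 1.59%) and the FOXO site in 0 (against 3.21%). The median GC content was 60.4% for channel genes and 51.2% for all. These are descriptions of letters in a window and were set against no expression value.

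Several other voltage-gated potassium pores had their highest value on the dTGR array. Kcna1, a shaker-type pore of nerve fibres, was at 16.1, 78.4, 9.03 and 14.0 in SD control, dTGR, losartan and terminal heart failure, so that dTGR alone was above the floor, at least 3.01-fold over each other array, but under 2-fold with the floor at the 60th percentile or the median of its probe sets. Kcnc4, a fast-gating pore, was at 27.1, 62.3, 18.1 and 15.1, with dTGR 2.30-fold above SD control and at least 2.40-fold above both others. Kcng1, a silent subunit that modifies other pores, was at 40.2, 53.1, 41.9 and 19.0, with the terminal value at least 2.04-fold below dTGR, a call lost after each of the 3 other normalizations. In dTGR the difference of Kcnc4 from SD control was under 2-fold after scaling to the same median, quantile normalization and cyclic loess, down to 0.96, as were those of Kcnh4 (down to 0.08, with the floor at the 60th percentile) and, by the former 2, Kcnf1 (down to 0.87).

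Kcnf1, another silent subunit, had its own pattern. It was at 30.0 in SD control, 65.1 in dTGR, 63.7 after losartan and 18.1 in terminal heart failure. Both dTGR arrays, untreated and treated, were high, at 2.17-fold and 2.12-fold over SD control, and terminal heart failure was at least 2.50-fold and 2.45-fold below them. Except for dTGR against SD control, the calls of Kcnf1 stood at every setting that gave a value. Kcns3, also a silent subunit, was highest in SD control, at 45.4, and lay between 27.0 and 32.3 on the other arrays, short of 2-fold.

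Among auxiliary potassium subunits, Kcnab2, a cytoplasmic beta subunit, was at 49.2, 65.2, 14.1 and 65.1. The losartan array was the low one, at least 2.51-fold below dTGR and 2.50-fold below terminal heart failure. A further probe set of Kcnab2 was also lowest there, at 66.8, 42.6, 22 and 61.4, and both calls stood at every setting that gave a value. Kcnmb1, the beta subunit of the calcium-activated potassium channel of smooth muscle, was highest in SD control, at 208, then 162 in dTGR, 151 after losartan and 127 in terminal heart failure, with no difference of 2-fold. Its other probe set was above the floor in dTGR alone, at 59.1.

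The tandem-pore potassium channels carry background current. Kcnk1 was at 35.1, 79.0, 35.2 and 46.5, with dTGR 2.25-fold above SD control and 2.24-fold above losartan, although its difference was under 2-fold after scaling to the same median, quantile normalization and with the floor at the 60th percentile. Kcnk3, an acid-sensitive channel, was at 204, 200, 130 and 166, with no 2-fold difference. Its other probe set was at 50.0, 103, 4.04 and 35.4, and so was also lowest after losartan. Kcnn1, a small-conductance calcium-activated channel, was at 74.8 in SD control, 14.0 in dTGR, 34.5 after losartan and 62.4 in terminal heart failure. It was low on the dTGR array, at least 2.88-fold below SD control and at least 2.40-fold below terminal heart failure, and losartan was 2.17-fold below SD control. Both differences from SD control were under 2-fold with the floor at the 60th percentile.

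**Figure D4:**
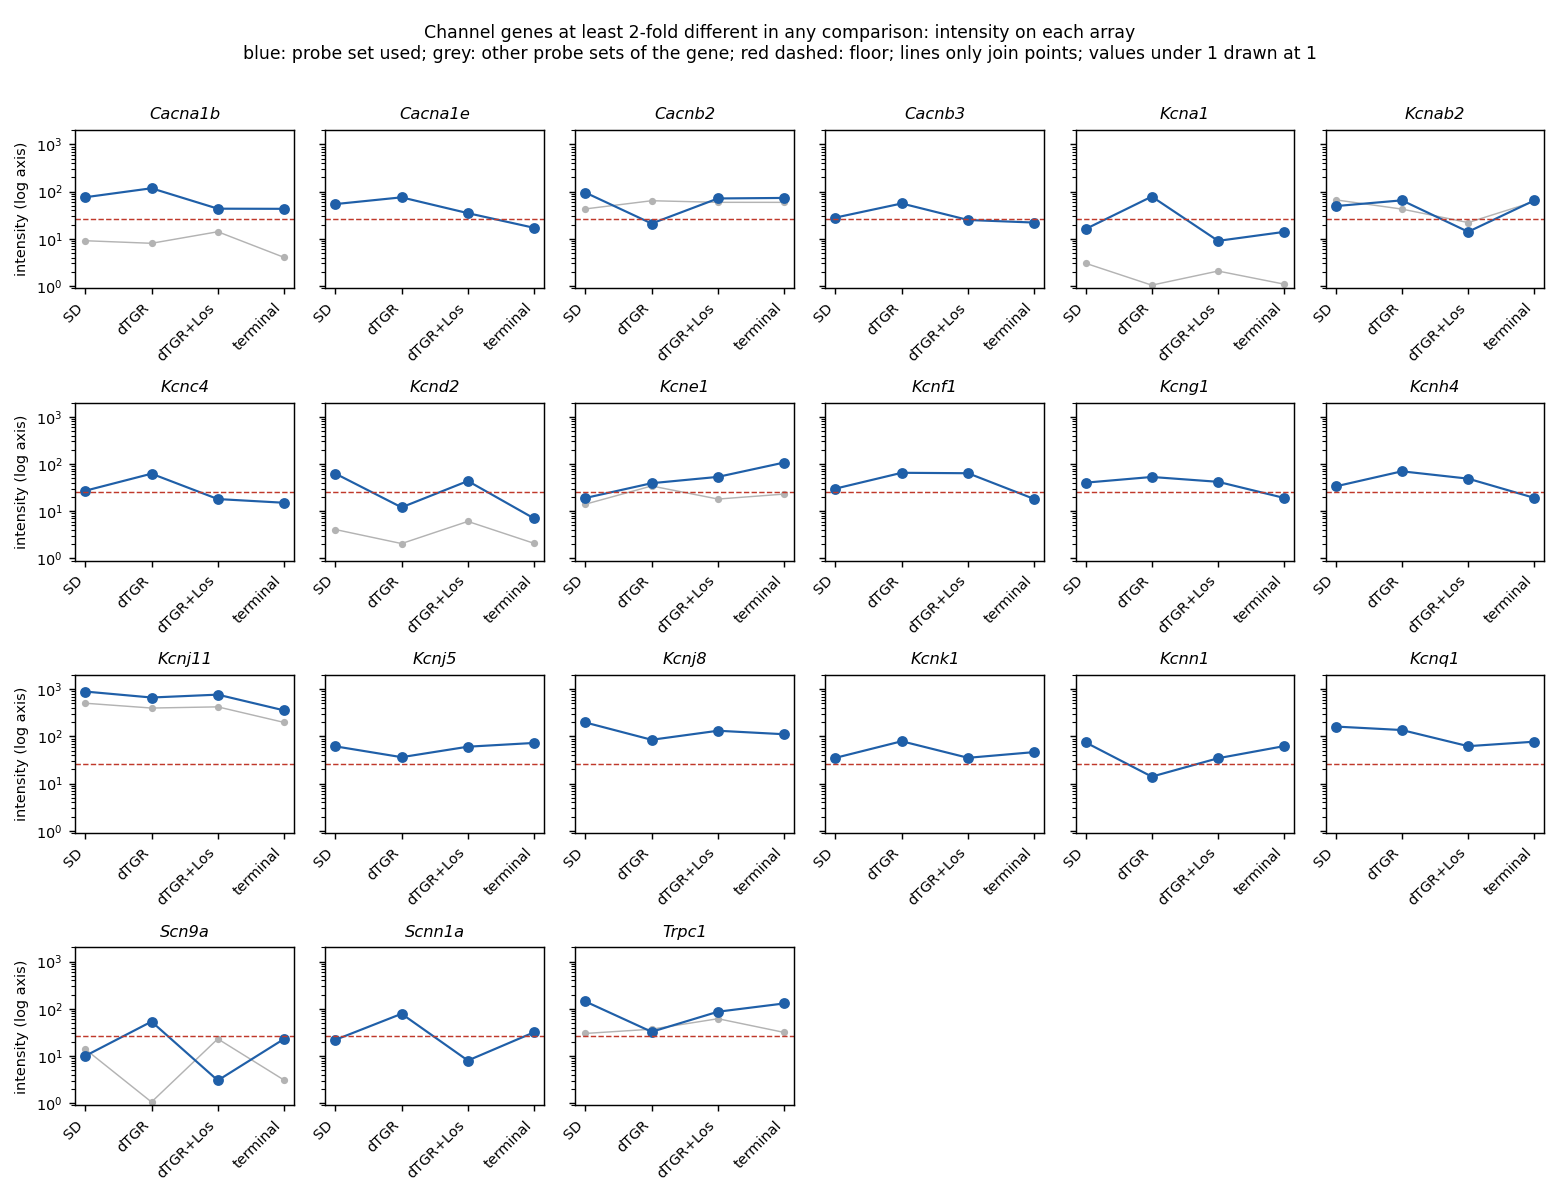
Intensity (log axis) of the 21 channel genes that differed at least 2-fold in any comparison on each of the 4 arrays, with the probe set used in blue, other probe sets of the gene in grey and the floor of 26.0 as a red dashed line. Both Kcnj11 probe sets run in parallel and both Kcnab2 probe sets are lowest after losartan, while those of Trpc1, Cacnb2 and Kcne1 differ in pattern, and most other panels lie within a few fold of the floor.

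Calcium channels are built from a pore and auxiliary subunits. Of the 7 pore genes, Cacna1a, Cacna1b and Cacna1g were above the floor on all 4 arrays. Cacna1b, the pore of the N-type channel of nerve endings, was at 75.8, 118, 43.4 and 43.1 in SD control, dTGR, losartan and terminal heart failure. The dTGR array was high, and losartan and terminal heart failure were 2.71-fold and 2.73-fold below it. Both calls of Cacna1b were lost with the floor at the 60th percentile and with the median of its probe sets, the other of which lay under the floor throughout. Cacna1e, the pore of the R-type channel, had a like order at 54.3, 75.5, 34.9 and 17.0, with the terminal value at least 2.09-fold below SD control and at least 2.90-fold below dTGR, and losartan 2.16-fold below dTGR. Cacna1e in terminal heart failure against SD control was past 2-fold at the 7 settings that gave a value, which were those other than the 60th percentile floor and the limit to genes above the floor on both arrays, whereas its losartan call was lost after each of the 3 other normalizations and both calls against dTGR were lost with the floor at the 60th percentile.

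Cacna1g, a pore of the T-type channel of pacemaker and fetal heart cells, was at 129, 139, 99.0 and 100.1, and Cacna1a, the pore of the P/Q-type channel of nerve endings, was at 137, 204, 148 and 105. Neither reached 2-fold in any comparison on these probe sets. Of the 3 others for Cacna1a, 1 was above the floor in dTGR alone, at 52.7, and the other two were under it there, so they did not agree among themselves. Cacna1h, the other T-type pore of the heart, stayed between 4.02 and 27.0, and Cacna1s, the pore of skeletal muscle, was under the floor on all arrays. Of 8 neuron and Schwann cell markers on the array, Nefm, Syt1, S100b and Mbp were at the floor throughout, and the list summed to 241 in SD control, 185 in dTGR, 185 after losartan and 179 in terminal heart failure. Its other members went different ways: Uchl1 was highest in dTGR, at 69.4 against 42.9 in SD control, as were Cacna1a, Cacna1b and Kcna1, while Snap25 and Th were highest in SD control and Nefl after losartan. Their part in these results was not tested.

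Among calcium auxiliary subunits, Cacna2d1, the alpha2delta subunit of cardiac and skeletal muscle, was at 574, 373, 619 and 606, with dTGR low by -0.62. Cacnb2, the beta subunit of the cardiac L-type channel, was at 95.2, 21.0, 71.5 and 73.3. On this probe set dTGR alone was under the floor, at least 3.66-fold below SD control. The other Cacnb2 probe set went against it, at 42.9, 64.0, 59.2 and 59.1, with dTGR highest, so the direction of Cacnb2 in dTGR was not settled. Cacnb3, the beta subunit of smooth muscle and brain, was at 28.1, 56.0, 25 and 22, with dTGR at least 2.15-fold above losartan and terminal heart failure, which was lost after each of the 3 other normalizations. Cacnb1 ranged from 73.6 to 124 and Cacng1 from 37.5 to 53.5, both without a call.

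Sodium channel genes were measured near the floor. Of the 10 members other than the Scnn1 genes, Scn4a and Scn7a were above it on all arrays, and 4 (Scn2a, Scn2b, Scn8a and Scn10a) on none. Scn4a, the pore of skeletal muscle, was at 62.3, 47.1, 54.1 and 79.2, with terminal heart failure highest but no 2-fold difference, and a further probe set also put the terminal array highest, at 53.3, with a difference of 1.04 from SD control as a lower bound. Scn7a, an atypical sodium channel, was at 82.8, 70.7, 61.8 and 45.3, with the terminal array low by -0.87 from SD control. Its other probe set was at 82.3, 62.0, 60.3 and 34.7, at -1.25 from SD control, so the terminal array was lowest on both and past 2-fold on 1 of them.

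Scn9a, a pore of sensory neurons, was above the floor in dTGR alone, at 53.6, at least 2.06-fold over the other arrays, which had 10, 3.04 and 23.0 in SD control, losartan and terminal heart failure. This was lost after each of the other normalizations and with the median of its probe sets. Scnn1a, the alpha subunit of the epithelial sodium channel, was at 22, 78.5, 8.02 and 31.9, so dTGR was at least 3.02-fold above SD control and losartan and 2.46-fold above terminal heart failure. With the floor at the 60th percentile these differences were under 2-fold, and the difference between dTGR and terminal heart failure was so after cyclic loess as well. Its partners Scnn1b and Scnn1g were under the floor on all 4 arrays.

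Chloride transport genes held 1 member above the floor throughout. Clcn3, a chloride-proton exchanger of endosomes, was at 157, 182, 185 and 206, without a 2-fold difference. Clcn1 and Clcn7 were under the floor on all 4 arrays. Of the 3 chloride members above it on at least 1 array, 0 were called in any comparison, too few to set against 35.6% of all genes. Trpc1, a cation channel subunit of store-operated calcium entry, was at 143 in SD control, 32.6 in dTGR, 86.8 after losartan and 130 in terminal heart failure. The dTGR array was low, 4.39-fold below SD control, 3.99-fold below terminal heart failure and 2.66-fold below losartan, the largest measured fold of any channel gene in dTGR against SD control. The other Trpc1 probe set did not show this, at 30.1, 37.0, 61.7 and 31.6 with losartan highest, so the pattern rests on 1 probe set.

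A further 27 members were above the floor on 1 to 3 arrays and were called nowhere. Their intensities reached at most 50.8, and their differences at most 0.97 on the log2 scale. They included cardiac channels such as Kcna5, Kcnd3, Kcnj3 and Kcnj12, whose values near the floor do not show that the transcripts were few. The remaining 25 members were at or under the floor on all arrays. Among the voltage-gated potassium pores these were Kcna2, Kcna6, Kcnb2, Kcnc1, Kcnc2, Kcnh1, Kcnh5, Kcnh6 and Kcnv1.

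Other genes of cardiac excitation, on 6 lists of pumps, calcium release, gap junctions, channel partners, other channels and transcription factors, were counted in the same way, 77 of 115 being on the array. Of 65 such genes tested in dTGR against SD control, 2 were higher (Slc8a1 and P2rx3) and 0 lower, against 7.69% and 5.87% of all genes, with a median of 0.06. Of 60 tested in terminal heart failure against SD control, 7 were lower and 1 was higher, Aqp1, against 8.4% and 6.38% of all genes, with a median of -0.35 against -0.14 over all genes. The 7 were Jph2, Cav1, P2rx4, Atp1b2, Sri, Gja3 and Gata4.

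Jph2, which ties the sarcoplasmic reticulum to the cell membrane, was at 2278, 3012, 1784 and 752 in SD control, dTGR, losartan and terminal heart failure. Like Kcnj11, it was lowest on the terminal array and past 2-fold below both SD control and losartan, and it was also past 2-fold below dTGR. Gata4, a transcription factor of heart muscle, was at 402, 337, 260 and 196. The losartan array had 0 higher and 4 lower of 62 against SD control, where 2.24% and 4.86% of all genes were so, among them Gja1, the main ventricular connexin, at 278 in SD control and 47.0 after losartan, and Ryr2, the calcium release channel, at 110 and 53.5.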

How the data were processed

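The authors deposited 1 linear intensity per probe set and array; how it was computed is not given in the sources used here. The instrument settings of each array came from the deposited instrument records. For each array a trimmed mean (2% left out at each end) was set to the mean over the 4, and values were floored at the 40th percentile of pooled values and put on the log2 scale, starting from the authors' intensity values. Of 15281 values from 1 to under 32, 13625 had the decimals of a month, as a spreadsheet writes a day and month; these lie near or under the floor. Of 8799 probe sets, 59 controls, 1426 with no symbol and 308 with more than 1 were not used. All 88 members matched the RefSeq gene table by identifier and kept their symbols. The rule leaves out 1 calcium channel gene, which is not reported here.

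No test was run. Counts past 2-fold were set beside those over all genes. The calling steps were tested on simulated data. Named with values was every member called in any comparison or above the floor on all 4 arrays (36 genes); all others are named without a full account, and those few values of theirs that are given were chosen after being seen. The members and lists were chosen with earlier results of these data known. Alternatives were 7 settings (3 normalizations, 2 floors, both arrays above the floor, the median of probe sets) and 2 more added after seeing the data. Python 3.11.15, pandas 2.3.3, R 4.3.3 and limma 3.58.1 (quantile and cyclic loess) were used. The number of arrays limits the precision.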

Additional observations from a re-analysis of the deposited data

How the results depend on the processing

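No paired analysis was possible because each group has 1 array. All 52 calls of channel genes over the 6 comparisons kept their sign under every alternative that gave them a value. Of these calls, 13 stayed past 2-fold in each such alternative. A setting that gave no value could not count against a call. Kcnc4 in terminal heart failure against dTGR, 1 of the 13, had a value at 6 settings. Kcnj11 in terminal heart failure against SD control had one at 9. No change of floor can reverse a sign. In dTGR against SD control, the other probe sets of Cacnb2 and Trpc1 had the opposite sign. In the order dTGR against SD control, terminal against SD control, terminal against dTGR, losartan against dTGR, losartan against SD control and terminal against losartan, higher calls were 7, 1, 5, 2, 2 and 2, and lower calls 5, 4, 10, 10, 2 and 2. With the floor at the 25th percentile, higher calls were 19, 5, 8, 12, 9 and 7, and lower calls 10, 10, 21, 19, 5 and 18. With the floor at the 60th percentile, higher calls were 0 in each, and lower calls 2, 2, 0, 1, 1 and 1. A lower floor lets more low values count for every gene. Counts over all genes at these floors are not given here, so these calls have no background to be read against. Counting only genes above the floor on both arrays gave 4, 0, 3, 1, 1 and 1 higher and 2, 2, 2, 4, 2 and 1 lower. These were of 31, 27, 29, 30, 31 and 26 channel genes tested. Of 2875, 2833, 2789, 2837, 2898 and 2795 genes in all, 146, 172, 193, 147, 47 and 186 were higher. Lower were 134, 210, 255, 187, 117 and 196. Taking the median over probe sets of each gene, higher calls in the same order were 5, 2, 2, 1, 1 and 1, and lower calls were 2 in dTGR against SD control. Lower counts of the other comparisons and counts over all genes are not given here for this setting. Among the lower calls it lost were those of Cacna1b, Kcna1 and Scn9a, both in terminal heart failure and in losartan against dTGR.

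Normalization moved mostly the comparisons with the dTGR array. Higher calls in dTGR against SD control were 2 after scaling to the same median and after quantile normalization and 4 after cyclic loess. Over all genes, 278 such calls became 159, 215 and 216. Lower calls in terminal heart failure against dTGR were 6 after cyclic loess, which took those over all genes from 426 to 300. In losartan against dTGR, lower calls were 5 after scaling to the same median and 6 after quantile normalization, which gave 4 higher, and quantile normalization gave 1 higher in terminal heart failure against losartan. Over all genes, lower calls in losartan against dTGR went from 346 to 219 and 284 with these settings. With scaling, floor and probe set choice from the 3 arrays other than dTGR, chosen after seeing the data, 4 were lower in terminal heart failure against losartan. Reading low values with 1 decimal, also chosen after seeing the data, left all counts and medians within the limits used.

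The median of channel genes in dTGR against SD control was 0.25 and became 0.0089 with scaling to the same median, 0.13 with quantile normalization, 0.13 with cyclic loess, 0.11 and 0.045 with the floors at the 25th and 60th percentiles and 0.10 with both arrays above the floor. Over all genes that median was 0.03 and became -0.19, 0.0024 and 0.04 with the 3 normalizations, so it moved down with median scaling as well. In terminal heart failure against dTGR, the median of -0.45 became -0.23, -0.33 and -0.23 with the 3 normalizations in that order, -0.15 with the floor at the 60th percentile and -0.32 with both arrays above the floor. The median over all genes, -0.18, became 0.09, -0.07 and -0.06 with these normalizations. In losartan against dTGR, -0.16 became 0.077, -0.0079 and -0.0054, and the -0.05 over all genes became 0.17, 0.05 and 0.0041. In terminal heart failure against SD control, -0.23 became -0.12 with cyclic loess and -0.35 with the floor at the 25th percentile. With cyclic loess the median over all genes went from -0.14 to -0.03. In losartan against SD control, -0.05 became -0.21 with the floor at the 60th percentile and -0.20 with both arrays above the floor. In terminal heart failure against losartan, a floor at the 25th percentile changed -0.06 to -0.18. Medians over all genes with the other floors are not given here. For these counts and medians the cause was not tested.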
